A study of Homo sapiens with 3 samples.

Results

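The nuclear pore and the receptors that carry cargo through it were described across 3 RNA libraries of MDA-MB-231 tumorspheres. The members were all protein-coding genes of the deposited tables whose symbol begins with NUP, KPNA, KPNB, IPO, XPO or TNPO and a digit, together with TPR, RANBP2 and CSE1L. This rule used names only, and it took 47 of 57773 listed genes, of which 20327 were protein-coding. The members were chosen, however, with earlier results of these data known. MDA-MB-231 cells are a long-established line from a human breast cancer that lacks hormone receptors, and tumorspheres are the floating clusters they form on plates that prevent attachment.

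Each group was 1 library of the same line, grown as spheres with epidermal growth factor, B27 and insulin. The first library is labelled with the genotype LINC00273 overexpression, made by transfecting wild-type spheres with a clone of LINC00273, a long non-coding RNA, in a pcDNA vector under the CMV promoter. The other 2 carry the genotype label WT control. It is called the LINC00273-labelled library here, because LINC00273 had 0 reads in it, 0 in the M2 library and 0 in the control. The second library came from spheres treated with 10 µM of an agent given as M2, and the third from untreated spheres, with a time of 24 h given for all 3. No empty-vector or vehicle-treated library is among the 3, and which cells took up the clone is not stated. No difference below is checked by a replicate, since every group is 1 library, and no p-value can be given.

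Depth and composition differed between the libraries. The tables held 5123199 reads on genes in the LINC00273-labelled library, 4695535 in the M2 library and 8620534 in the control, of which the small cytoplasmic and nuclear RNAs 7SL and 7SK took 42.8%, 39.3% and 54.7%. Of the 8 MDA-MB-231 markers, VIM, CAV1 and S100A6 had at least 208 reads in every library, AXL and LGALS1 had between 8 and 151, and CAV2, ANXA1 and TGFBI at most 15. The 8 summed to 1683 CPM (reads scaled to library size) in the LINC00273-labelled library, 1071 in the M2 library and 2056 in the control. VIM made up most of each sum, with 1451, 892 and 1632 CPM in the same order, and LGALS1 had 70, 8 and 72 reads. The 5 luminal breast markers summed to 19.9, 9.82 and 16.6 CPM in that order. Blood markers, a list of 5 genes, summed to 5.86 CPM in the LINC00273-labelled library, 1408 in the M2 library and 813 in the control, mostly from the globin gene HBB with 9, 5417 and 4860 reads, and HBA2 was at 0 in the LINC00273-labelled library. The part of these marker differences in the results below was not tested. In bulk RNA, fewer cells of a type and less RNA per cell cannot be told apart. Every library is given as the same breast cancer line, so the blood marker reads are not assigned to blood cells here. Their source was not tested.

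Nuclear pores are ring-shaped protein assemblies in the nuclear envelope, built from nucleoporins that form a scaffold, a channel filled with disordered FG repeats, filaments on the cytoplasmic face and a basket on the nuclear face. Most large protein cargo passes bound to a receptor of the importin beta family. Importins bring cargo in and release it when they meet RAN in its GTP-bound state, and exportins take cargo and RAN-GTP out together. Importin alpha proteins are adaptors that recognise the classical nuclear localization signal and tie its bearer to importin beta.

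Promoters are shown first for 4 genes on which the results turn. KPNA3 and KPNA6 are importin alpha genes whose log2 ratios to the control lay on opposite sides of 0, IPO7 is the import receptor with the highest read count after KPNB1 in the M2 library, and TPR had the highest ratio of M2 to control among the members with at least 100 reads in either of those libraries. The sequences are from RefSeq on GRCh38.p14, cover 250 bases before to 50 bases after the start, and are written 5′ to 3′ on the strand of the gene. Capitals mark the E-box CACGTG in KPNA3 and IPO7, and the CCAAT box, on either strand, in TPR and KPNA6. KPNA3 is at chr13:49792633-49792932 on the minus strand, IPO7 at chr11:9384402-9384701 on the plus strand, TPR at chr1:186375204-186375503 on the minus strand and KPNA6 at chr1:32107806-32108105 on the plus strand.
KPNA3: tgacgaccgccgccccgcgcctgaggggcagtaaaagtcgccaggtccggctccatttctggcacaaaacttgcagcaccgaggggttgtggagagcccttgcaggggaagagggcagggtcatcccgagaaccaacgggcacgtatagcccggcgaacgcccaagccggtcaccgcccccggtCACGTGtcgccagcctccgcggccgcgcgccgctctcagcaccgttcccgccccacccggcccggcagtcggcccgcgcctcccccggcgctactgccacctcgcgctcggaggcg
IPO7: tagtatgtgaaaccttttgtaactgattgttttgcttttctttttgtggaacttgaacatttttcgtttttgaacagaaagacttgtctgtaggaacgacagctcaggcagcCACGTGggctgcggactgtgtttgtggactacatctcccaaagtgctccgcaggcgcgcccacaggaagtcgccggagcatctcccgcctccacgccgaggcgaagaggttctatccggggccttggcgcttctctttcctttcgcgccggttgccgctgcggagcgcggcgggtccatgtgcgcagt
TPR: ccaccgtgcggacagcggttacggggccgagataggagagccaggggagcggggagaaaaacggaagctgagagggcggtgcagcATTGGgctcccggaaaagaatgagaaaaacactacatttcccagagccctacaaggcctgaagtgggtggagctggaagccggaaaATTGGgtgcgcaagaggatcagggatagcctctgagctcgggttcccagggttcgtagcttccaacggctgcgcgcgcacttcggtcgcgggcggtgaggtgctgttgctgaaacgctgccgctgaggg
KPNA6: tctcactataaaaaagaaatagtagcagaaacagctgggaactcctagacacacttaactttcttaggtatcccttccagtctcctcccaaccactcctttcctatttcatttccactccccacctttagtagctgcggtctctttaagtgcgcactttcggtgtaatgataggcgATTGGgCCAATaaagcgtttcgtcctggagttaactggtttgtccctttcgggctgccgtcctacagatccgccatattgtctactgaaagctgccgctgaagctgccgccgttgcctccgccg

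A promoter sequence was matched for 41 of the 47 members. The motifs were counted on both strands, as exact letters, over the same 300 bases. CCAAT was found in 22 of the 41 members (53.7%), against 35.7% of all 27305 promoters. The ETS core CCGGAAG was found in 11 members (26.8%), against 10.7% of all promoters. The E-box CACGTG was found in 6 members (14.6%), against 7.43% of all, and the YY1 motif AAGATGGC in 5 (12.2%), against 3.03%. Among the 10 matched members that were at least 2-fold higher in the M2 library, 5 held CCAAT, 3 the G-quadruplex pattern, 2 the E-box and 1 the NRF1 motif. Of all promoters, 35.7% held CCAAT, 24.1% the G-quadruplex pattern, 7.43% the E-box and 6.28% the NRF1 motif. None of the 10 held the ETS core or the YY1 motif, where 10.7% and 3.03% of all promoters did. Counts among 10 promoters are too small to set these members apart from that background. These are matches of letters, which say nothing of binding.

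Of the 47 members, 29 had at least 100 reads in 1 or more of the libraries and are described below by their level and ratio. Beside a value, the LINC00273-labelled library is written LINC00273-labelled for short. Levels are given as CPM, reads scaled to a common library size by the TMM method across the 3 libraries. A ratio is the log2 of 2 such levels, with a 95% interval that covers counting error only, since reads from PCR carry no molecular identifiers and are not separate molecules. A member was called higher or lower when it differed at least 2-fold and either library held 100 reads or more of it, and the same rule over all genes gives the background.

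In the M2 library, 12 of the 28 members with 100 reads in it or the control were at least 2-fold higher and 0 were lower, where 17.4% of all 3805 genes with those reads were higher and 8.88% lower. At 1.5-fold, 16 members were higher and 0 lower, against backgrounds of 29.8% and 23.6%. The median log2 ratio of the members was 0.78, beside −0.02 for all genes. Of the members, 22 lay above 0 and 6 below, where 49.4% of all genes lay above 0 and 50.6% below. The summed reads of all 47 members stood at 34255 in the M2 library and 28096 in the control, a log2 ratio of 0.91 (0.87 to 0.94) after scaling. The 12 were the adaptors KPNA3 and KPNA4, the import receptors KPNB1, IPO7, IPO11 and TNPO1, the exportins CSE1L and XPO4, and the pore genes NUP98, NUP153, TPR and RANBP2.

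In the LINC00273-labelled library, 5 of 29 members were at least 2-fold higher than in the control and 0 were lower, against 5.18% and 6.61% of all 3842 genes. These were KPNA3, NUP153, TPR, XPO4 and TNPO1. Both comparisons share the 1 control library, so their ratios are set side by side below and not counted as independent. At 1.5-fold, 13 members were higher and 2 (KPNA6 and TNPO2) were lower, where 17.0% and 28.6% of all genes were. The median of the members was 0.40, beside −0.21 for all genes. Above 0 lay 18 members and below it 11, where 39.5% of all genes lay above 0 and 60.5% below. The summed reads, 29977 against 28096 in the control, gave a log2 ratio of 0.33 (0.29 to 0.36). Between the M2 and the LINC00273-labelled library, 0 of 29 members reached 2-fold, where 1.65% of genes were higher and 1.47% lower in the M2 library, and the members' median was 0.47, beside 0.29 for all genes.

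The level of the scale itself depends on the method of scaling. Scaling to the total count raised the median of all genes by 0.52 on the log2 scale for the LINC00273-labelled library over the control and by 0.26 for M2 over the control. The distance of the members' median from the all-gene median stays the same under each scaling, and was 0.61 in the LINC00273-labelled library and 0.79 in the M2 library. For LINC00273-labelled, 7 of 29 members stood 2-fold above the all-gene median and 0 stood 2-fold below it, beside 10.2% and 2.99% of all genes. In the M2 library 12 of 28 members stood above it by that much and 0 below, beside 17.8% and 8.59% of all genes.

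**Figure D1:**
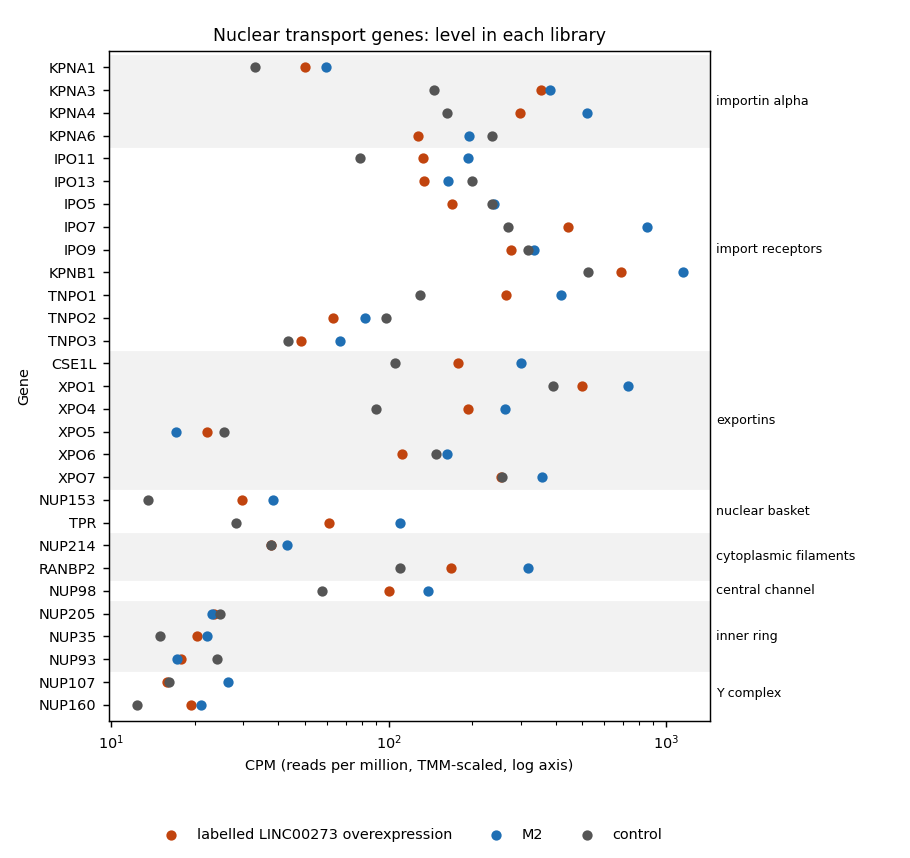
Level of the 29 members with at least 100 reads in a library, in CPM on a log axis, 1 point per library and gene, grouped by role. KPNB1 is highest in every library, and nucleoporins other than NUP98 and RANBP2 lie mostly below the transport receptors.

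Among the importin alpha adaptors, KPNA3 was at least 2-fold higher in both libraries than in the control, KPNA4 was so in the M2 library, and KPNA6 lay below 0 in both. KPNA3 (importin alpha 4, ENSG00000102753, GRCh38 chr13:49699307-49792921, minus strand) had 354 CPM in the LINC00273-labelled library, 381 in the M2 library and 145 in the control, from 2174, 1787 and 1048 reads. Its log2 ratio to the control was 1.28 (1.13 to 1.44) in the LINC00273-labelled library and 1.39 (1.23 to 1.55) in the M2 library. These ratios share the same control library, which had the lowest level. KPNA4 (importin alpha 3), the closest relative of KPNA3, had 298 CPM in the LINC00273-labelled library, 519 in the M2 library and 163 in the control. Its ratios were 0.87 (0.72 to 1.02) for LINC00273-labelled and 1.67 (1.53 to 1.82) for M2, so that M2 stood highest and the LINC00273-labelled library between.

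KPNA6 (importin alpha 7, ENSG00000025800, GRCh38 chr1:32108038-32176568, plus strand) ran the other way. It had 127 CPM in the LINC00273-labelled library, 194 in the M2 library and 236 in the control, from 782, 910 and 1703 reads, with ratios of −0.89 (−1.07 to −0.72) for LINC00273-labelled and −0.28 (−0.45 to −0.12) for M2. KPNA1 (importin alpha 5), of the same subfamily as KPNA6, had 49.8 CPM for LINC00273-labelled, 59.3 for M2 and 32.9 for the control, and ratios of 0.60 (0.24 to 0.95) for LINC00273-labelled and 0.85 (0.48 to 1.21) for M2. Of its annotated exonic bases, 16.3% are shared with another gene.

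The ratio of 2 genes within a library does not depend on scaling, although its change between libraries can still carry a trend with GC content. KPNA3 had 2.78 times the reads of KPNA6 in the LINC00273-labelled library, 1.96 times in the M2 library and 0.615 times in the control. The log2 change of that ratio relative to the control was 2.18 (1.94 to 2.41) in the LINC00273-labelled library and 1.67 (1.45 to 1.91) in the M2 library. The transcripts have 40.3% GC in KPNA3 and 47.5% in KPNA6, and with each gene set against genes of like GC content the changes were 1.40 for LINC00273-labelled and 0.80 for M2. Per kb of the longest transcript, KPNA3 made up 56.1% of importin alpha reads in the LINC00273-labelled library, 46.2% in the M2 library and 36.0% in the control, whereas KPNA6 made up 12.2%, 14.3% and 35.5%. The share of KPNA4 was 23.5%, 31.4% and 20.1% in the same libraries. None of these shares is adjusted for GC content. In the control, then, KPNA3 and KPNA6 were at near-equal levels per kb, and in the other 2 libraries they were not. This pair and the pairs below were chosen after their values were seen.

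**Figure D2:**
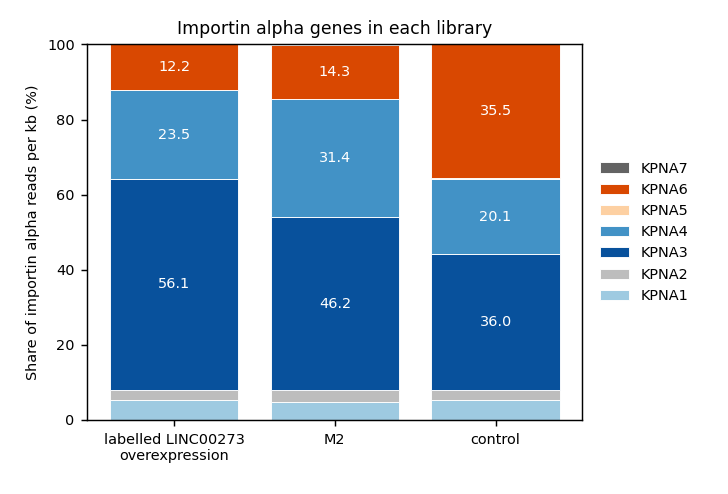
Share of each importin alpha gene in the summed reads per kb of all 7 (%), 1 bar per library, not adjusted for GC content. KPNA6 holds 12.2% in the LINC00273-labelled library, 14.3% in the M2 library and 35.5% in the control, and KPNA3 holds the largest share in each library, by 36.0% to 35.5% over KPNA6 in the control.

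The remaining 3 adaptors were scarce. KPNA2 (importin alpha 1), often abundant in dividing cells, had 62 reads for LINC00273-labelled, 67 for M2 and 44 for the control, and 3 annotated pseudogenes carry its name. KPNA5 had 2 reads for LINC00273-labelled, 16 for M2 and 20 for the control, and KPNA7 0 for LINC00273-labelled, 2 for M2 and 0 for the control.

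KPNB1 (importin beta 1), the receptor that carries importin alpha and its cargo, was the most abundant member per length in every library. It had 690.3 CPM in the LINC00273-labelled library, 1147 in the M2 library and 524 in the control, from 4238, 5373 and 3777 reads. Its ratios to the control were 0.40 (0.31 to 0.49) for LINC00273-labelled and 1.13 (1.04 to 1.22) for M2, so that only M2 passed 2-fold. Per kb of transcript these levels were 112, 187 and 85.4 CPM, above the next gene in each library beyond counting error.

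IPO7, which imports ribosomal proteins and, together with KPNB1, linker histones, had 445 CPM in the LINC00273-labelled library, 854 in the M2 library and 269.5 in the control. The ratios were 0.72 (0.60 to 0.84) for LINC00273-labelled and 1.66 (1.55 to 1.78) for M2, and the M2 library held 4002 reads of it against 1943 in the deeper control. IPO7 has 2 annotated pseudogenes under its name. TNPO1 (transportin 1), an import receptor of RNA-binding proteins such as hnRNP A1, had 266 CPM for LINC00273-labelled, 418 for M2 and 129.6 for the control. Its ratios were 1.04 (0.87 to 1.20) for LINC00273-labelled and 1.69 (1.53 to 1.85) for M2, past 2-fold in both libraries. IPO11, an importin whose cargo includes ubiquitin-conjugating enzymes, had 134 CPM for LINC00273-labelled, 193 for M2 and 78.8 for the control, and ratios of 0.76 (0.54 to 0.98) for LINC00273-labelled and 1.29 (1.08 to 1.51) for M2, with 22.6% of its exonic bases shared with other genes.

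TNPO2 (transportin 2), the paralog of TNPO1, did not move with it. It had 63.0 CPM in the LINC00273-labelled library, 82.2 in the M2 library and 98.1 in the control, with ratios of −0.64 (−0.90 to −0.38) for LINC00273-labelled and −0.26 (−0.51 to 0.00) for M2. Relative to genes of like GC content, the sign of both turned, to 0.02 for LINC00273-labelled and 0.39 for M2. TNPO1 had 4.22 times the reads of TNPO2 in the LINC00273-labelled library, 5.09 times in the M2 library and 1.32 times in the control, a log2 change of 1.67 (1.36 to 1.98) for LINC00273-labelled and 1.95 (1.64 to 2.25) for M2. These paralogs differ widely in base composition, with 37.2% GC in TNPO1 and 56.2% in TNPO2, and set against genes of like GC content the changes were 0.56 for LINC00273-labelled and 0.37 for M2. TNPO1 has 3 annotated pseudogenes under its name.

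The other import receptors with 100 reads stayed within 2-fold. IPO5, a receptor of ribosomal proteins and core histones, had 169 CPM in the LINC00273-labelled library, 241 in the M2 library and 236 in the control, with ratios of −0.48 (−0.64 to −0.32) for LINC00273-labelled and 0.03 (−0.13 to 0.18) for M2. IPO9, which carries histones and actin, had 276 CPM for LINC00273-labelled, 333 for M2 and 319 for the control, and ratios of −0.21 (−0.34 to −0.08) for LINC00273-labelled and 0.06 (−0.07 to 0.20) for M2. IPO13, a receptor that works in both directions, had 134 CPM for LINC00273-labelled, 163 for M2 and 199 for the control, with ratios of −0.57 (−0.75 to −0.40) for LINC00273-labelled and −0.29 (−0.47 to −0.10) for M2. Its transcript has 58.2% GC, and relative to genes of like GC content the sign of both turned, to 0.03 for LINC00273-labelled and 0.32 for M2. For TNPO3, the receptor of SR splicing factors, the levels were 48.5 CPM for LINC00273-labelled, 66.8 for M2 and 43.3 for the control, and the ratios 0.17 (−0.17 to 0.50) for LINC00273-labelled and 0.63 (0.30 to 0.96) for M2. IPO8 stayed under the minimum with 86 reads for LINC00273-labelled, 84 for M2 and 78 for the control, and IPO4 had 0 reads in all 3 libraries, with 70.1% of its exonic bases shared with other genes in the annotation.

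IPO5 lay below genes of like base composition in both libraries. Its transcript has 41.0% GC, and relative to genes of like GC content its log2 ratio was −0.84 in the LINC00273-labelled library and −0.80 in the M2 library. KPNB1 had 4.08 times the reads of IPO5 in the LINC00273-labelled library, 4.77 times in the M2 library and 2.22 times in the control. This pair changed by 0.88 (0.70 to 1.06) for LINC00273-labelled and 1.10 (0.92 to 1.28) for M2 on the log2 scale, and by 1.31 and 1.80 in those libraries relative to genes of like GC content. IPO5 has 1 annotated pseudogene under its name.

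Of the 6 exportins, 2 were at least 2-fold higher in the M2 library than in the control, where 17.4% of all genes were. In the LINC00273-labelled library 1 of the 6 was, where 5.18% of all genes were. Counts this small say little about exportins as a group. CSE1L, the exportin that returns importin alpha to the cytoplasm, had 178 CPM in the LINC00273-labelled library, 301 in the M2 library and 106 in the control, with ratios of 0.75 (0.56 to 0.95) for LINC00273-labelled and 1.51 (1.33 to 1.69) for M2. XPO4, whose cargo includes eIF5A, had 193 CPM for LINC00273-labelled, 264 for M2 and 90.4 for the control. Its ratios of 1.09 (0.90 to 1.29) for LINC00273-labelled and 1.54 (1.35 to 1.74) for M2 were the highest of the exportins.

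XPO1 (CRM1), the exportin of leucine-rich export signals and the target of selinexor-type drugs, was the most abundant exportin per length in every library. It had 499.9 CPM in the LINC00273-labelled library, 729 in the M2 library and 391 in the control, and its ratios of 0.35 (0.25 to 0.46) for LINC00273-labelled and 0.90 (0.80 to 1.001) for M2 were under 2-fold. Relative to genes of like GC content they were −0.08 for LINC00273-labelled and −0.01 for M2. XPO5, which exports microRNA precursors, had 136 reads for LINC00273-labelled, 80 for M2 and 184 for the control, and ratios of −0.20 (−0.68 to 0.26) for LINC00273-labelled and −0.58 (−1.15 to −0.03) for M2, the lowest M2 value among members with 100 reads. XPO6, the exportin of actin, had ratios of −0.41 (−0.61 to −0.21) for LINC00273-labelled and 0.13 (−0.06 to 0.33) for M2 from 684 reads for LINC00273-labelled, 759 for M2 and 1066 for the control. XPO7, an exportin of broad cargo range, had 1562 reads for LINC00273-labelled, 1669 for M2 and 1849 for the control, and ratios of −0.01 (−0.15 to 0.13) for LINC00273-labelled and 0.47 (0.34 to 0.61) for M2. Scaled to the total count, XPO5, XPO6 and XPO7 were above 0 in the LINC00273-labelled library, and so were IPO5, IPO9, NUP93, NUP107 and NUP205.

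**Figure D3:**
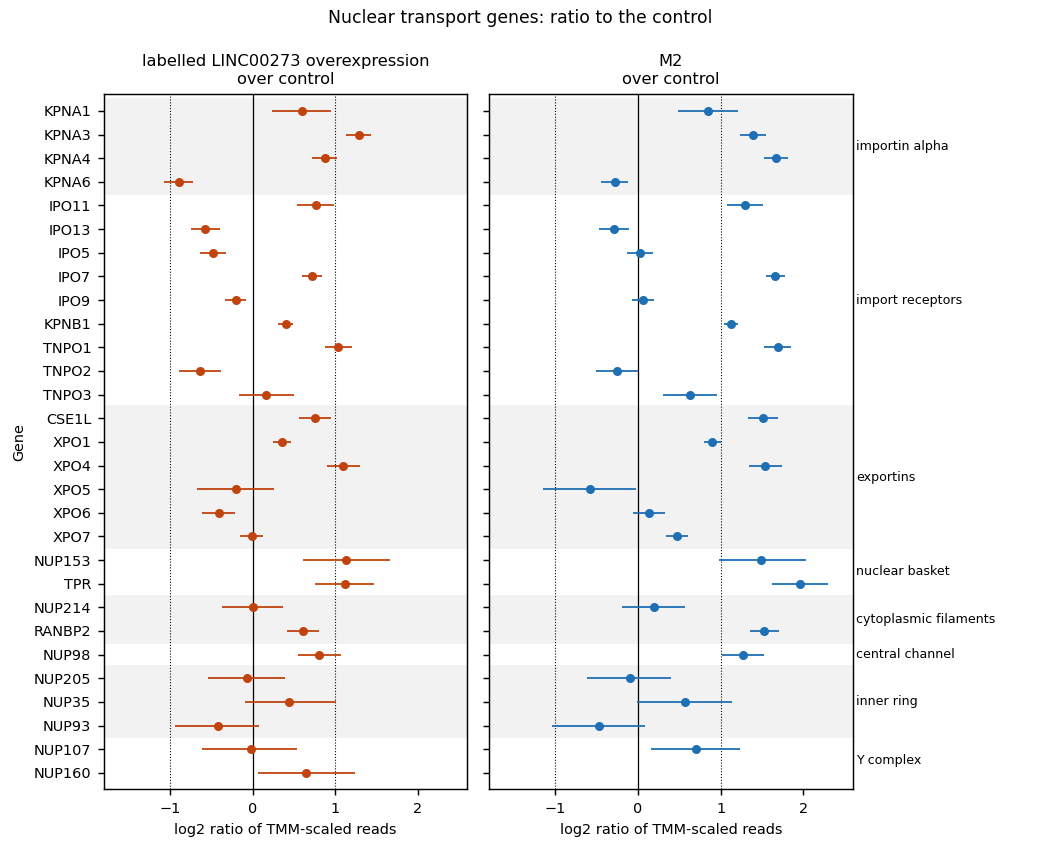
Log2 ratio of each member to the control in the LINC00273-labelled library and in the M2 library, with 95% counting intervals, for members with 100 reads or more in either library. Dotted lines mark 2-fold, which 5 members pass on the high side in the LINC00273-labelled library and 12 in the M2 library. The intervals of KPNA6 and IPO13 lie below 0 in both panels, although IPO13 stands at 0.03 and 0.32 relative to genes of like GC content.

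The 2 genes of the nuclear basket with 100 reads were at least 2-fold higher in both libraries than in the control. Of all genes, 17.4% were so in the M2 library and 5.18% in the LINC00273-labelled library. A count of 2 genes says little about the basket as a group. TPR (ENSG00000047410, GRCh38 chr1:186311652-186375693, minus strand), the coiled-coil protein that forms the basket's filaments, had 60.9 CPM in the LINC00273-labelled library, 109.9 in the M2 library and 28.2 in the control. Its ratios were 1.11 (0.75 to 1.47) for LINC00273-labelled and 1.96 (1.62 to 2.31) for M2, the M2 value being a 3.90-fold difference from 515 reads in the M2 library and 203 in the control. NUP153 (ENSG00000124789, GRCh38 chr6:17615035-17706834, minus strand), the FG nucleoporin that anchors TPR, had 29.6 CPM for LINC00273-labelled, 38.2 for M2 and 13.6 for the control. The ratios were 1.12 (0.61 to 1.66) for LINC00273-labelled and 1.49 (0.98 to 2.03) for M2, on 182 reads for LINC00273-labelled, 179 for M2 and 98 for the control, and 9.25% of its exonic bases are shared with another gene. Relative to genes of like GC content, TPR stood at 0.71 for LINC00273-labelled and 1.23 for M2, and NUP153 at 1.20 and 1.36. The other basket gene, NUP50, had 8 reads for LINC00273-labelled, 0 for M2 and 17 for the control. Summed over the 3, the basket's log2 ratio was 1.06 (0.76 to 1.34) in the LINC00273-labelled library and 1.75 (1.47 to 2.02) in the M2 library.

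RANBP2, the large filament protein on the cytoplasmic face that binds RAN-GTP and acts as a SUMO ligase, had 167 CPM in the LINC00273-labelled library, 318 in the M2 library and 109.9 in the control. Its ratios were 0.61 (0.42 to 0.80) for LINC00273-labelled and 1.53 (1.35 to 1.71) for M2. The human genome carries several near-identical partial copies of RANBP2 (the RGPD genes), so its reads may include theirs. NUP214, its neighbour on that face and a docking site of XPO1, had 37.8 CPM for LINC00273-labelled, 43.1 for M2 and 37.7 for the control, and ratios of 0.00 (−0.37 to 0.37) for LINC00273-labelled and 0.19 (−0.19 to 0.57) for M2, which both span 0. NUP88, the partner of NUP214, had 20 reads for LINC00273-labelled, 3 for M2 and 31 for the control.

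NUP98 (ENSG00000110713, GRCh38 chr11:3671083-3797792, minus strand), whose product is cut into an FG nucleoporin and the scaffold protein NUP96, had 100.2 CPM in the LINC00273-labelled library, 139 in the M2 library and 57.4 in the control. Its ratios were 0.80 (0.55 to 1.07) for LINC00273-labelled and 1.27 (1.02 to 1.53) for M2. Both ratios use the same control library, which had the lowest level. The channel proteins NUP54 and NUP62 stayed between 6 and 26 reads.

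The structural rings showed no member past 2-fold among those with 100 reads. So few members say little about the rings as groups. In the inner ring, NUP93, which holds the channel proteins in place, had 110 reads for LINC00273-labelled, 81 for M2 and 173 for the control, and ratios of −0.42 (−0.94 to 0.07) for LINC00273-labelled and −0.47 (−1.04 to 0.09) for M2. NUP205, a large ring scaffold protein, had 144 reads for LINC00273-labelled, 108 for M2 and 178 for the control, and ratios of −0.07 (−0.54 to 0.39) for LINC00273-labelled and −0.10 (−0.61 to 0.40) for M2. NUP35, which touches the pore membrane, had 125 reads for LINC00273-labelled, 104 for M2 and 108 for the control, and ratios of 0.44 (−0.09 to 1.01) for LINC00273-labelled and 0.57 (−0.01 to 1.14) for M2. All 6 of these intervals span 0, and NUP35 has 2 annotated pseudogenes under its name. Summed over its 5 members, the inner ring gave log2 ratios of −0.04 (−0.29 to 0.21) for LINC00273-labelled and −0.09 (−0.36 to 0.18) for M2, which lie apart from the intervals of the basket. In the Y complex of the outer ring, NUP107 had 98 reads for LINC00273-labelled, 124 for M2 and 117 for the control, and ratios of −0.02 (−0.61 to 0.53) for LINC00273-labelled and 0.71 (0.15 to 1.23) for M2. Relative to genes of like GC content the M2 value of NUP107 turned to −0.08. NUP160 had 119 reads for LINC00273-labelled, 99 for M2 and 89 for the control, and a ratio of 0.65 (0.06 to 1.24) in the LINC00273-labelled library. NUP160 had under 100 reads in both the M2 library and the control, so no ratio is given there.

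The remaining members stayed under 100 reads throughout, so that 2-fold differences in them rest on few reads. These were NUP37, NUP43, NUP85 and NUP133 of the Y complex, NUP155 and NUP188 of the inner ring, the membrane protein NUP210, and NUP210L and NUP62CL, in addition to those named above. NUP188 had 44 reads for LINC00273-labelled, 26 for M2 and 92 for the control, the highest count among them. NUP133 had 30 reads for LINC00273-labelled, 6 for M2 and 46 for the control, and NUP37 20 for LINC00273-labelled, 18 for M2 and 6 for the control. The authors' deposited tables of significant genes list NUP133 and NUP88 as lower and NUP37 as higher in the M2 library than in the control, with folds of 0.211, 0.157 and 4.86, and KPNA5 as lower in the LINC00273-labelled library, with a fold of 0.124. None of the 29 members with 100 reads is in those lists.

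Levels per length rank the members within a library, in CPM per kb of the longest transcript. In the LINC00273-labelled library KPNB1 was followed by KPNA3 with 79.2, XPO1 with 73.8 and IPO7 with 71.8, and the counting intervals of these neighbours overlap. In the M2 library it was followed by IPO7 with 138 and XPO1 with 108, apart from each other beyond counting error, followed by KPNA3 with 85.2 and CSE1L with 84.6, which were not. In the control XPO1 followed KPNB1 with 57.7, then XPO7 with 52.8 and IPO13 with 51.2, whose intervals overlap from one to the next. KPNA3 thus ranked 2 in the LINC00273-labelled library, 4 in the M2 library and 8 in the control, and IPO13 ranked 7, 9 and 4. The lowest of the 29 was NUP93 in the LINC00273-labelled and M2 libraries, with 2.17 and 2.09, and NUP153 in the control, with 2.25.

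Base composition ran with the ratios. Across the members, the rank correlation of the log2 ratio with transcript GC content was −0.64 in the LINC00273-labelled library (29 genes) and −0.74 in the M2 library (28 genes), beside −0.60 over 3798 and −0.69 over 3763 genes. Transcript length also ran with the ratios over all these genes, at 0.43 for LINC00273-labelled and 0.38 for M2. Across the members its rank correlation was 0.15 and 0.28. These are descriptions across genes of the same libraries, and genes are not independent replicates. The members' median GC content was 43.3%, against 45.9% for all genes, and their median transcript was 6191 nt, against 4119 nt. Among the 14 members with the lower GC content, all 14 lay above 0 in the M2 library, with a median of 1.45 and 9 past 2-fold. Of the 725 genes in the same range of GC content, 86.6% lay above 0 and 40.4% were 2-fold higher. Among the 14 with the higher GC content, 8 lay above 0, with a median of 0.10 and 3 past 2-fold, where 30.4% of the 1675 genes in that range lay above 0 and 4.12% were 2-fold higher. In the LINC00273-labelled library the median was 0.72 over 15 members of lower GC content and −0.14 over 14 of higher GC content. Of the 15, 13 lay above 0 and 4 were 2-fold higher, beside 70.6% and 10% of the 1199 genes in that range. Of the 14, 5 lay above 0 and 1 was 2-fold higher, beside 19.7% and 1.78% of the 1690 genes in that range.

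**Figure D4:**
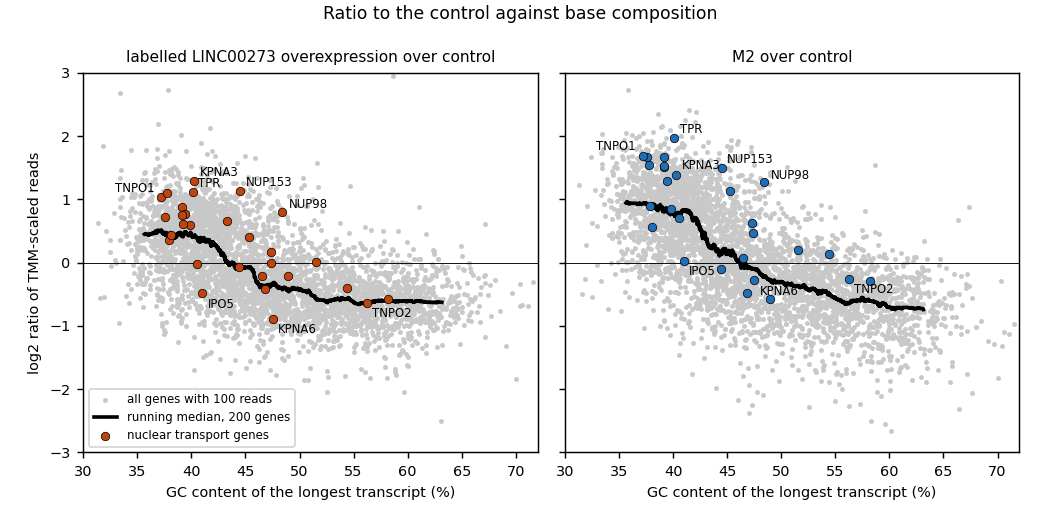
Log2 ratio to the control against GC content of the longest transcript (%), for the LINC00273-labelled library and the M2 library. Grey points are all genes with 100 reads or more in either library, the line is their running median over 200 genes, and coloured points are the members. 4 genes in the first panel and 1 in the second lie beyond the vertical axis. NUP98 and NUP153 stand above the line in both panels and IPO5 below it.

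Each ratio was therefore also set against the median of the 200 genes nearest in GC content. On this scale 4 of 28 members were 2-fold higher in the M2 library, namely NUP98 at 1.496, NUP153 at 1.36, TPR at 1.23 and KPNB1 at 1.002, where 178 of 3763 genes (4.73%) were. In the LINC00273-labelled library 2 of 29 were, NUP98 at 1.21 and NUP153 at 1.20, where 134 of 3796 genes (3.53%) were. NUP98 was thus past 2-fold in the LINC00273-labelled library only after centring on GC content alone. The median of the members was 0.57 in the M2 library and 0.29 in the LINC00273-labelled library, on a scale where the median of all genes is set near 0. With 200 genes nearest in both GC content and length, NUP153 remained past 2-fold in both libraries, at 1.16 in the M2 library and 1.06 in the LINC00273-labelled library, and NUP98 in the M2 library alone, at 1.28 beside 0.95. Centred on length alone, NUP98 was within 2-fold in both, at 0.72 in the M2 library and 0.53 in the LINC00273-labelled library. NUP153 stood at 1.10 and 0.91 in the same order. Of the members called before centring, KPNA3, KPNA4, TNPO1, IPO7, IPO11, CSE1L, XPO4 and RANBP2 lay within 2-fold of genes of like GC content in the M2 library, at values between 0.44 and 0.86. Centring on GC content also turned the sign of 9 of the 29 ratios in the LINC00273-labelled library and 6 of the 28 in the M2 library, all within 2-fold. Before centring, the counting intervals of 4 of the 9 and 3 of the 6 already spanned 0. For LINC00273-labelled, IPO9, IPO13, NUP205, TNPO2, XPO5, XPO6 and XPO7 came to lie above 0, and NUP35 and XPO1 below. In the M2 library IPO13 and TNPO2 came to lie above 0, and IPO5, NUP35, NUP107 and XPO1 below.

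**Figure D5:**
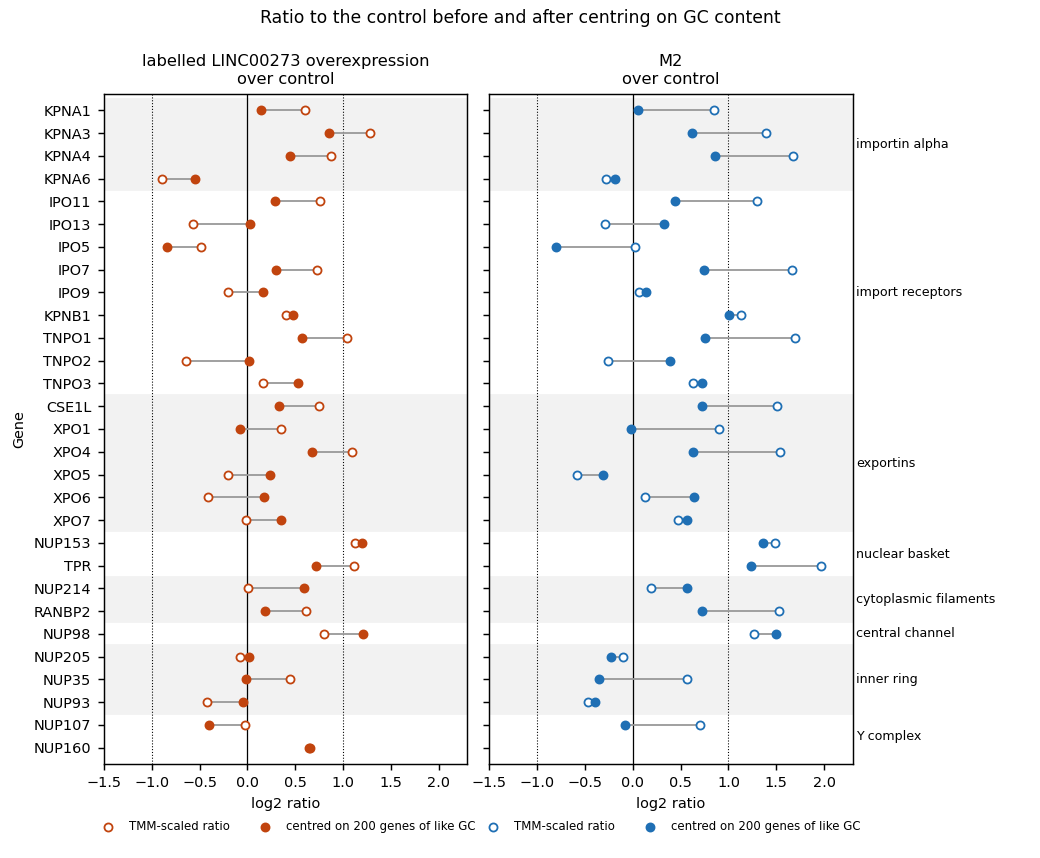
Log2 ratio to the control of each member before (open points) and after (filled points) centring on the 200 genes nearest in GC content, for the LINC00273-labelled library and the M2 library. Lines join the 2 values of a gene, and dotted lines mark 2-fold. After centring, NUP98 and NUP153 lie past 2-fold in both panels, and TPR and KPNB1 in the M2 panel.

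The M2 library had the higher level for 26 of 29 members when set against the LINC00273-labelled library, as it had for 75.4% of all 3404 genes with 100 reads in either. The ratio was 0.94 (0.84 to 1.04) for IPO7, the highest, followed by 0.92 (0.76 to 1.09) for RANBP2 and 0.85 (0.58 to 1.13) for TPR. KPNA3 stood at 0.11 (−0.02 to 0.24), an interval that spans 0, and KPNA4 at 0.80 (0.68 to 0.93). The intervals lay above 0 for 20 members, below 0 for 0, and spanned it for 9. The share of all genes at that cut was not computed, so these counts cannot be read as a trait of the members. Set against genes of like GC content, 19 members lay above 0 and 10 below, beside 1675 and 1694 of 3369 genes.

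Other genes of the pathway, outside the name rule, gave 3 of 15 genes with 100 reads at least 2-fold higher and 0 lower in the M2 library than in the control, and 0 and 0 of 15 in the LINC00273-labelled library. Of all genes, 17.4% were higher and 8.88% lower in the M2 library and 5.18% and 6.61% in the LINC00273-labelled library, so 3 of 15 is near the background. The 3 were NDC1, a membrane nucleoporin, at 1.34 (1.01 to 1.66), and THOC1 and THOC2 of the THO complex of mRNA export, at 1.20 (0.90 to 1.51) and 1.02 (0.88 to 1.17). RAN, the GTPase that gives transport its direction, had 2208 reads in the LINC00273-labelled library, 2226 in the M2 library and 3733 in the control, with ratios of −0.53 (−0.63 to −0.42) for LINC00273-labelled and −0.12 (−0.23 to −0.02) for M2. The median of the 15 was 0.52 in the M2 library and 0.11 in the LINC00273-labelled library, beside −0.02 and −0.21 for all genes. Relative to genes of like GC content, 0 of the 15 passed 2-fold in either library.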

How the data were processed

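The authors deposited, per the file headers, for 57773 genes the signal in each library, in 1 table for each of 2 comparisons with the control, together with a ratio (fold) and a log2 ratio. The submitters' processing notes name featureCounts 1.5.2, Bowtie2 2.2.4, STAR, Trimmomatic and DESeq2 and the hg19 build, for 150-base paired reads of total RNA depleted of ribosomal RNA. The sources used here give no settings, annotation or strand. The signals deposited by the authors were whole multiples of 1 step per library, so whole reads could be recovered, for 100% of values within 0.01. Most low counts were even (80.5% in the LINC00273-labelled library, 85.8% in M2 and 82.3% in the control below 20 reads), so intervals were computed on fragments, as reads divided by 2.

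TMM scaling (R 4.3.3, edgeR 4.0.16) of the recovered reads gave effective library sizes of 6139145, 4686051 and 7208511 in the same order. Log2 ratios have no prior and carry exact binomial (Clopper-Pearson) 95% intervals, computed with scipy 1.17.1. A group of 1 library leaves a model no residual degrees of freedom, so no count test was run and the number of genes such a test calls is not given. Steps were tested on simulated data. GC content and length came from the longest GENCODE 29 transcript on GRCh38, with 47 of 47 members matched by gene identifier, and promoters from RefSeq. The members and lists were chosen with earlier results of these data known. Every member with 100 reads in a library is named, and those past 2-fold are given in full. Alternatives were DESeq2 size factors (DESeq2 1.42.0), total count, TMM on protein-coding genes, the deposited scaling, a prior of 5 reads, minimums of 20 and 500 reads or none, 1.5-fold and 4-fold thresholds, and centring on GC content or length. Centring on both together was added after seeing the data.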

Additional observations from a re-analysis of the deposited data

How the results depend on the processing

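Of the 57 member ratios, 15 changed sign centred on GC content, 13 on GC content and length, 9 by total count, 5 centred on length, 3 with the deposited scaling, 2 with DESeq2 size factors and 1 with TMM on protein-coding genes. None of these was past 2-fold before, and of 57 ratios in 8 alternatives 310 moved by less than their counting interval and 146 by more. All 5 members higher in the LINC00273-labelled library and all 12 in the M2 library remained past 2-fold under DESeq2 size factors, a prior of 5 reads, the deposited scaling and the total count. With TMM on protein-coding genes 4 of the 5 and 12 of the 12 did. Centring on GC content kept 1 of 5 and 4 of 12, centring on length 1 of 5 and 7 of 12, and both together 1 of 5 and 2 of 12. In the LINC00273-labelled library the count of higher members was 13 by total count (21.4% of all genes), 3 of 18 with 500 reads (4.93%), 13 at 1.5-fold (17.0%), 0 at 4-fold (0.156%), 2 centred on GC content (3.53%), 2 on length (6.03%) and 1 on both (2.53%). The count of lower members was 1 of 41 with 20 reads (9.69%), 1 of 45 with no minimum (8.12%), 2 at 1.5-fold (28.6%) and 1 centred on length (3.95%). The members' median there was 0.45 with DESeq2 size factors, 0.92 by total count, 0.36 with TMM on protein-coding genes, 0.48 with the deposited scaling, 0.50 with 500 reads, 0.29 centred on GC content, 0.26 on length and 0.21 on both. Their summed ratio was 0.37 with DESeq2 size factors, 0.84 by total count, 0.29 with TMM on protein-coding genes and 0.40 with the deposited scaling. In the M2 library the count of higher members was 0 at 4-fold (0.42% of all genes), 4 centred on GC content (4.73%), 7 on length (11.2%) and 2 on both (3.67%), and that of lower members was 3 of 38 with 20 reads (16.5%), 4 of 45 with no minimum (10.7%) and 1 centred on length (8.85%). The median there was 0.83 with DESeq2 size factors, 1.03 by total count, 0.85 with the deposited scaling, 0.62 with 20 reads, 1.27 with 500 reads, 0.57 with no minimum, 0.57 centred on GC content, 0.45 on length and 0.54 on both. The summed ratio was 0.96 with DESeq2 size factors, 1.16 by total count and 0.98 with the deposited scaling. It has no value centred on GC content or length. Why these values moved was not tested, apart from scalings, which shift every gene alike. No paired analysis was possible because each group is 1 library and the groups share only 1 replicate number. Leaving out a replicate was not possible for the same reason.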

Other observations

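KPNA2, the importin alpha gene most often abundant in dividing cells, had 62 reads in the LINC00273-labelled library, 67 in the M2 library and 44 in the control, which is 2.92%, 3.16% and 2.76% of importin alpha reads per kb. RANGAP1 and RCC1, which hold the RAN gradient on either side of the envelope, had 37 and 58 reads in the LINC00273-labelled library, 24 and 38 in the M2 library and 36 and 82 in the control, beside 2208, 2226 and 3733 for RAN.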
